A study of Arabidopsis thaliana with 24 samples.

Results

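The genes described here had higher transcript levels under water deficit in emerging leaves of Arabidopsis thaliana and differed by less than 1.32-fold between the water supplies in expanding leaves. They were chosen by measured values. Of 37336 gene identifiers, 16185 had a mean normalized count of at least 10 over the 12 libraries of each leaf age. For each leaf age and genotype, the mean log2(normalized count + 1) of the well-watered libraries was subtracted from that of the deficit libraries. A gene was kept if this difference was at least 0.8 (1.74-fold) in both genotypes in emerging leaves and between −0.4 and 0.4 (1.32-fold either way) in both genotypes in expanding leaves. This left 49 of the 16185 genes. The deficit differences of these genes are therefore a description of the choice, and no test is read for them. The band limits the size of a difference in expanding leaves and does not set it to 0: there 37 of the 49 differences averaged over genotypes were positive and 12 negative, from −0.29 to 0.35. In the limma fit across all genes used further on, 4 of the 49 genes were called higher under deficit in expanding leaves and 0 lower (adjusted p under 0.05), against 8.55% and 9.95% of all genes, and nothing is read from this count, since the rule used the same contrast.

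RNA was sequenced from plants of accession Col-0, the standard laboratory line, and of the knockout mutant gtl1-4, which lacks function of GTL1, a gene for a trihelix transcription factor. Plants of both genotypes grew in an 8 h photoperiod and were kept either between 65 and 100% of the medium's water content (well-watered) or at 30% (water deficit). Leaves were taken at 1 day after they emerged (emerging) or at 14 to 15 days (expanding), which with 2 genotypes and 2 water supplies gives 8 groups. Each group has 3 biological replicates, each a pool of 10 plants, and the mutant is represented by this allele alone. P-values measure the spread between such pools.

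Leaves respond to a shortage of water through abscisic acid signalling, the build-up of osmolytes and sugars, and slower growth. A leaf that has just emerged grows mainly by cell division and imports much of its carbon, whereas an expanding leaf has largely stopped dividing, has working chloroplasts and stores starch by day. Starch breakdown starts when the glucan water dikinase GWD1 (SEX1) phosphorylates the granule surface, and myo-inositol made by enzymes such as MIPS1 feeds the synthesis of galactinol and raffinose.

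Library depth was recovered by taking the most frequent positive value of each library as 1 count. It was 14.7 to 43.5 M counts in emerging and 14.9 to 27.1 M in expanding leaves. Of these, 11.4 to 32.8 and 4.74 to 10.0 M were nuclear. GTL1 itself was lower in each gtl1-4 library than in each Col-0 library at both ages. Markers of dividing cells were all 10 detected in emerging leaves, where their summed normalized count was 23803 to 27229 in the 6 well-watered libraries and 17035 to 22244 in the 6 deficit libraries, and 311 to 735 in expanding leaves. In emerging leaves 5 of these 10 were lower under deficit by limma (adjusted p under 0.05), with log2 differences of −0.81 for PCNA1, −0.50 for TSO2, −0.47 for MCM5, −0.46 for MCM2 and −0.20 for ANT, whose call was lost without well-watered Col-0 replicate 1 or 2, well-watered gtl1-4 replicate 1, deficit Col-0 replicate 1 or deficit gtl1-4 replicate 2 (limma adjusted p up to 0.0660). The summed phloem markers SUC2 and APL were 362 to 489 in well-watered and 741 to 991 in deficit libraries of emerging leaves, and 1 of the 2 was called higher. In expanding leaves their sum was 831 to 1860 well-watered and 1332 to 1911 under deficit, and 2 of the 2 were called higher. The meristem markers STM, WUS and CLV3 summed to at most 4.24 in any emerging library and were at 0 in expanding leaves. Summed root markers were 9.67 to 83.9 in emerging leaves, with RHD6 and EXPA7 at 0 in each library and COBL9 at 4.00 or less. The 1 gene tested, WOX5, which made up nearly all of the sum, was called higher under deficit (log2 difference 1.38). Summed senescence genes were 2888 to 3227 in well-watered and 3781 to 4326 in deficit libraries of emerging leaves, where 4 of the 7 tested were called higher and 0 lower. In expanding leaves they were 1291 to 1476 well-watered and 1501 to 1760 under deficit, with 2 of 6 called higher and 0 lower. Summed trichome markers were 1288 to 2016 in well-watered and 1261 to 1542 in deficit libraries of emerging leaves, and 1 of 3 was called lower. Summed stomatal lineage markers were 822 to 1206 in well-watered and 881 to 1269 in deficit libraries of emerging leaves, and 0 of 6 were called. At least 1 marker each of proliferation, phloem, root (WOX5 alone), senescence and trichomes moved with water supply in the same emerging libraries as the 49 genes. The trichome sums of the water supplies overlapped. The part of these markers in the results was not tested. In such bulk samples, fewer cells of a type and less RNA per cell cannot be told apart.

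Among the 49 genes, the deficit difference in emerging leaves ranged from 0.81 to 1.82 in Col-0 (median 1.03) and from 0.80 to 1.97 in gtl1-4 (median 1.09), against medians of 0.00 over all 16185 genes in both genotypes. In 22 genes it was at least 1 in both genotypes. The rise was larger in Col-0 for 22 genes and larger in gtl1-4 for 27. The difference was thus larger in Col-0 in 44.9% of the members, against 48.6% of all genes. By annotated function, 6 encode transporters, 4 act on starch, inositol or the cell wall, 11 are other enzymes, 4 belong to detoxification or redox families, 3 to peptidase families and 10 to signalling or regulatory families, and 11 are of other or unknown function. This grouping was made after the members were known.

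**Figure D1:**
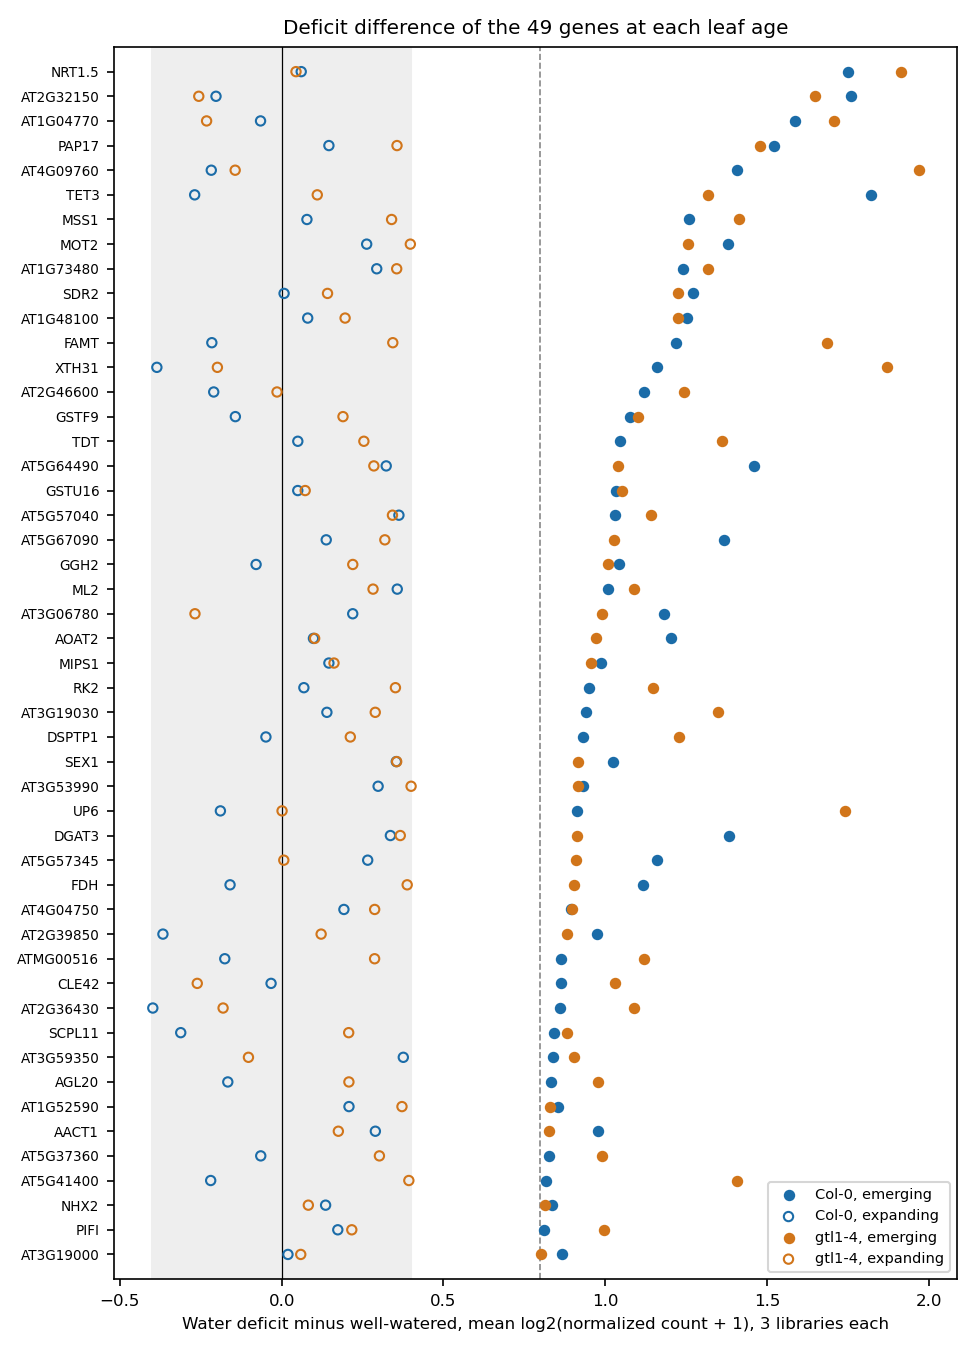
Water deficit minus well-watered difference in mean log2(normalized count + 1) for each of the 49 genes (rows, ordered by the smaller of the emerging differences), with filled points for emerging and open points for expanding leaves, blue for Col-0 and orange for gtl1-4, and 3 libraries per mean. The dashed line at 0.8 and the grey band from −0.4 to 0.4 are the limits used to choose the genes, so filled and open points are apart by choice. NRT1.5, AT2G32150 and AT1G04770 have the largest emerging differences when genes are ordered by the smaller of the values of the genotypes.

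The stretch just upstream of the annotated transcript start was read from the TAIR10.1 reference (RefSeq) for the 48 nuclear genes. The remaining gene, ATMG00516, is mitochondrial by its identifier and had no annotation match. The letters ACGTG, the core of the abscisic acid response element bound by bZIP factors, were found on either strand within 250 bases in 15 of the 48 genes, 31.2%, against 22.9% of 16045 nuclear genes with the same expression filter. Windows of 60 bases are shown for 6 genes that hold the core, 5 of them among the 12 with the largest rise, because these genes were raised together. They are the first 6, by the smaller emerging rise, whose window meets no annotated gene. MOT2, which holds the core, was left out by this choice. Capitals mark ACGTG, its complement CACGT, or where both overlap the palindrome CACGTG. Each sequence is given 5′ to 3′ on the gene's own strand.
AT2G32150 (chr2:13658689-13658748, plus strand): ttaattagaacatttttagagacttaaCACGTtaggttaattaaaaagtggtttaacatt
AT1G04770 (chr1:1337960-1338019, minus strand): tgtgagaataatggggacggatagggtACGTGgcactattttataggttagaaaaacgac
TET3 (chr3:16735956-16736015, minus strand): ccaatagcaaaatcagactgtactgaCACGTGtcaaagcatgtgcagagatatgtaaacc
AT1G73480 (chr1:27628428-27628487, plus strand): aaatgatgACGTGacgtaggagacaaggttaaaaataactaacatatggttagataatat
FAMT (chr3:16379397-16379456, plus strand): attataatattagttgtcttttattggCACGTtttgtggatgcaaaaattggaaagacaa
AT2G46600 (chr2:19135935-19135994, plus strand): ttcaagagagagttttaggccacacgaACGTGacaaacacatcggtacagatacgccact

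The core begins between 37 bases (TET3) and 242 bases (AT1G73480) before the transcript start. That no annotated gene lies in these windows was a condition of their choice. The longer forms ACGTGG and CACGTG, which overlap the core, were each found in 6 of 48 genes, 12.5%, against 8.95% and 7.53% of all genes. The dehydration-responsive element occurred as ACCGAC in 5 genes (10.4% against 5.47%) and as GCCGAC in 2 (4.17% against 2.99%). The evening element AAATATCT occurred in 4 genes (8.33% against 4.91%) and the heat element GAANNTTC in 6 (12.5% against 9.07%). GT boxes, the kind of site that trihelix factors such as GTL1 bind, were present as GGTAAA in 9 genes (18.8% against 15.6%) and as GGTAAT in 3 (6.25% against 11.4%). The W-box forms TTGACC (3 genes, 6.25% against 11.8%) and TTGACT (7 genes, 14.6% against 18.0%) were less frequent than over all genes, the MYB motif AACCAA was at 33.3% against 31.3%, and GCCGCC was found in 0 of the 48 against 2.00%. These are counts of letters on both strands, given without a test, and a match is not a shown binding site.

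The transporters include the gene with the largest rise. NRT1.5, a nitrate transporter known for loading nitrate into the root xylem, had normalized counts of 5.33, 16.1 and 15.5 in well-watered Col-0 emerging leaves and 44.8, 32.2 and 43.7 under deficit. In gtl1-4 the values were 4.07, 14.0 and 9.53 well-watered and 22.1, 51.6 and 34.3 under deficit. Every deficit library was thus above every well-watered one, with differences of 1.75 in Col-0 and 1.92 in gtl1-4. Over the 12 expanding libraries it ranged from 44.4 to 95.9, with differences of 0.06 and 0.04.

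MSS1, also named STP13, is a plasma membrane importer of hexoses. It read 26.6, 37.6 and 34.8 well-watered and 81.8, 62.0 and 99.3 under deficit in Col-0 emerging leaves. The gtl1-4 libraries read 47.8, 44.7 and 11.7 well-watered and 71.2, 114 and 63.2 under deficit. Groups did not overlap within either genotype, and the well-watered gtl1-4 replicate 3 was the lowest of all 12. The differences were 1.26 and 1.41 in emerging and 0.08 and 0.34 in expanding leaves.

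MOT2 exports molybdate from the vacuole and had 58.6, 45.1 and 21.3 well-watered and 88.9, 83.9 and 139.9 under deficit in Col-0. In gtl1-4 it had 61.0, 43.8 and 40.2 well-watered and 85.2, 200.03 and 88.9 under deficit, with replicate 2 well above the other two. Its emerging differences were 1.38 and 1.26, while in expanding leaves the 12 libraries ranged from 39.1 to 76.2 and the differences of 0.26 and 0.40 came close to the limit of the band. TDT, the tonoplast dicarboxylate transporter that moves malate into the vacuole, went from 63.9, 95.6 and 71.6 to 190.4, 121 and 171 in Col-0, without overlap. In gtl1-4 it went from 59.97, 70.8 and 35.0 to 69.2, 277 and 136, where the lowest deficit library was below the highest well-watered one. NHX2, a vacuolar exchanger of sodium or potassium for protons, had replicate values close together. Its well-watered values of 539.5, 536 and 621 and deficit values of 980.2, 1039 and 1000.5 in Col-0 lay far apart, and gtl1-4 read 546, 602 and 645 well-watered and 998, 1032 and 1122 under deficit. The other transporter gene, AT4G04750, a sugar-porter-like protein of the major facilitator superfamily, had differences of 0.89 and 0.90.

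Genes of starch, inositol and the cell wall hold some of the highest counts of the set. SEX1 (GWD1) had 2443, 2409 and 2535 in well-watered Col-0 emerging leaves and 5536, 4361 and 5204 under deficit. In gtl1-4 it had 2693, 2947 and 2464 well-watered and 4766, 5427 and 5083 under deficit. All 6 deficit libraries were above all 6 well-watered ones, by 1.02 in Col-0 and 0.92 in gtl1-4. In expanding leaves its differences of 0.35 and 0.36 were inside the band but above 0 in both genotypes. Values there were 3667, 3917 and 4126 well-watered and 5552, 4214 and 5291 under deficit in Col-0. In gtl1-4 they were 3667, 3632 and 4336 well-watered and 5388, 4588 and 4893 under deficit. Within each genotype every deficit library was thus above every well-watered one in expanding leaves too, so SEX1 was not flat there. AT5G57040 and PIFI were also separated in this way in expanding leaves of both genotypes. Their differences there were 0.36 in Col-0 and 0.34 in gtl1-4 for AT5G57040, and 0.17 and 0.22 for PIFI.

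MIPS1, the enzyme that commits glucose 6-phosphate to inositol, read 2574, 3082 and 3253 well-watered and 6368, 5488 and 5747 under deficit in Col-0. In gtl1-4 it read 3229, 3192 and 3264 well-watered and 5701, 5716 and 7557 under deficit. Both genotypes showed the rise without overlap (0.99 and 0.96), and the expanding values overlapped throughout, from 5306 to 7626. The pectin lyase-like gene AT1G48100 read 554, 659 and 673 well-watered and 1623, 1359.5 and 1514 under deficit in Col-0. In gtl1-4 its values were 721, 764 and 767 well-watered and 1474, 1740.4 and 2099 under deficit, again apart in every library. XTH31, a xyloglucan endotransglucosylase/hydrolase that remodels the primary wall, had low values in emerging leaves, with 28.0, 30.1 and 19.3 against 63.9, 66.7 and 45.7 in Col-0 and a larger difference in gtl1-4 (1.87) than in Col-0 (1.16). In expanding leaves XTH31 ranged from 1018 to 1680.3 and its differences were −0.39 and −0.20. In Col-0 every deficit library there (1152 to 1363) was below every well-watered one (1653 to 1680), while the groups overlapped in gtl1-4.

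Other genes of the same pathways did not all behave like these members. Of 16 other tested genes of sugar transport and starch metabolism, 5 were higher under deficit in emerging leaves by limma (adjusted p under 0.05), 5 lower and 6 did not pass, against 24.2% called among all 18529 genes tested, 11.7% higher and 12.5% lower. The starch genes SEX4, a glucan phosphatase (log2 difference 0.96), PHS2, a cytosolic glucan phosphorylase (0.72), GBSS1, which makes amylose (0.89), and APL3, an ADP-glucose pyrophosphorylase subunit (1.07), rose together with the asparagine synthetase gene ASN1 (2.91). BAM3, the chloroplast beta-amylase (−0.37), the sugar carriers ERD6 (−2.09), STP1 (−0.80) and SUC1 (−0.79), and TPS8 (−0.27) fell. The call on TPS8 was lost without well-watered Col-0 replicate 1, 2 or 3, well-watered gtl1-4 replicate 2, deficit Col-0 replicate 3 or deficit gtl1-4 replicate 2 or 3 (limma adjusted p up to 0.0861). In expanding leaves 6 of 18 others rose, 6 fell and 6 did not pass, against 18.5% called among all 16522 genes tested, 8.55% higher and 9.95% lower. There, PHS2 (−0.09) and GBSS1 (0.04) did not pass the test, SEX4 rose by 0.44 and APL3 by 1.51.

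Of 11 other tested genes of proline, inositol and raffinose metabolism, 4 rose in emerging leaves, 3 fell and 4 did not pass. The galactinol synthase GOLS2 (3.72), the proline synthesis genes P5CS1 (2.41) and P5CS2 (0.43), and MIPS2 (0.32), another inositol phosphate synthase gene, were the risers. The proline dehydrogenase gene ERD5 (−2.25), the raffinose synthase-like gene DIN10 (−1.21) and GOLS1 (−0.41) fell. The call on GOLS1 (limma adjusted p = 0.0495) was lost in 9 of 12 fits that leave out 1 library, the exceptions being well-watered Col-0 replicates 1 and 2 and well-watered gtl1-4 replicate 2, and its difference was −0.26 without well-watered Col-0 replicate 3 (limma adjusted p = 0.109). In expanding leaves 3 of 10 rose, 3 fell and 4 did not pass, MIPS2 among the last with a difference of 0.07. No member belongs to the lists of late embryogenesis abundant proteins, abscisic acid signalling, anthocyanin synthesis or stress NAC and HD-Zip factors. Nothing is read from this, since only 49 of 16185 genes are members and the rule leaves out genes raised at both ages. Of 17 tested genes of the first list, 15 rose in emerging and 14 in expanding leaves. Of 13 genes of photosynthesis, 6 rose in emerging leaves, with differences of 0.27 for LHCB2.1 to 0.53 for PSAD1, and in expanding leaves 0 rose and RCA, the Rubisco activase, fell (−0.67).

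Several of the largest rises were in other enzymes. AT2G32150, a haloacid dehalogenase-like hydrolase, went from 26.6, 16.1 and 25.1 to 108, 93.4 and 45.7 in Col-0. In gtl1-4 it went from 13.2, 39.1 and 54.0 to 94.2, 107 and 92.8. The groups were apart within each genotype, although the highest well-watered gtl1-4 library exceeded the lowest deficit Col-0 library. PAP17, a purple acid phosphatase known as a marker of phosphate starvation and leaf ageing, had 376, 442 and 439 well-watered and 1397, 1465 and 848 under deficit in Col-0. The gtl1-4 values were 344, 409 and 447 well-watered and 1096, 1147 and 1087 under deficit. PAP17 differed by 1.52 and 1.48, with Col-0 deficit replicate 3 below the other deficit libraries, and in expanding leaves ranged from 104 to 211. AT1G73480, an alpha/beta-hydrolase, had 514, 451 and 551 well-watered and 1405, 1230.1 and 981 under deficit in Col-0, and 472, 495 and 463 well-watered and 1238, 1295 and 1049 under deficit in gtl1-4. This gene was also apart in every library, with differences of 1.24 and 1.32.

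In 2 enzyme genes of low count the replicates disagreed. FAMT, a farnesoic acid methyltransferase, read 10.7, 2.15 and 90.9 in well-watered and 50.1, 25.1 and 30.8 in deficit Col-0 emerging leaves, so that well-watered replicate 3 was the highest of the 6. In gtl1-4 it read 4.07, 3.72 and 24.4 well-watered and 27.1, 42.4 and 15.6 under deficit, also with overlap. SDR2, a short-chain dehydrogenase/reductase, read 19.98, 21.5 and 11.6 well-watered and 17.3, 76.9 and 57.6 under deficit in Col-0, where deficit replicate 1 was within the well-watered range. In gtl1-4 SDR2 was apart, at 24.4, 10.2 and 16.9 well-watered and 49.1, 27.7 and 44.5 under deficit.

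The remaining enzymes act in folate, amino acid, lipid and formate metabolism. GGH2, a vacuolar gamma-glutamyl hydrolase of folate metabolism, had nearly equal well-watered Col-0 values of 809, 811 and 810.3 and deficit values of 1943, 1595 and 1499. AOAT2, an alanine aminotransferase of the peroxisomal photorespiratory family, went from 541, 477 and 572 to 1107, 1337 and 1219.8 in Col-0, and DGAT3, a cytosolic diacylglycerol acyltransferase, from 419.6, 412 and 406 to 1509, 936 and 886. FDH, the mitochondrial formate dehydrogenase, went from 226, 246 and 215 to 688, 396 and 449.6. The acetoacetyl-CoA thiolase gene AACT1 and the 2-oxoglutarate-dependent oxygenase gene AT3G19000 had differences of 0.98 and 0.87 in Col-0, and of 0.83 and 0.80 in gtl1-4.

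Among detoxification and redox genes, GSTF9, a phi-class glutathione transferase, had the highest mean count of the 49 in emerging leaves. It read 3815, 3853 and 3792 well-watered and 8009, 8975 and 7272 under deficit in Col-0. In gtl1-4 it read 4986, 3854 and 3981 well-watered and 8922, 9326 and 9078 under deficit. The rise was thus present in every library (1.08 in Col-0), and in expanding leaves deficit and well-watered values were mixed, from 2517 to 4644. GSTU16, a tau-class glutathione transferase, had differences of 1.03 and 1.05, and the glyoxalase-family gene AT5G57040 of 1.03 and 1.14. AT1G52590, annotated as a DCC-family protein, read 52.0, 89.1 and 81.2 well-watered and 167, 177 and 76.4 under deficit in Col-0, with overlap in both genotypes.

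The 3 genes of peptidase families were SCPL11, a serine carboxypeptidase-like protein, and the subtilisin-like AT5G67090 and AT2G39850. SCPL11 read 209, 235 and 168 well-watered and 396, 452 and 267 under deficit in Col-0 emerging leaves, without overlap. AT5G67090 had the lowest mean of the set, with 7.99, 7.52 and 5.80 against 18.5, 12.6 and 32.8 in Col-0 and overlapping groups in gtl1-4. AT2G39850 overlapped in Col-0, at 28.0, 37.6 and 13.5 against 95.5, 25.9 and 46.6, and was apart in gtl1-4.

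Genes of signalling and regulation included TET3, a tetraspanin of the plasma membrane, with the largest difference in Col-0 (1.82). It read 45.3, 58.0 and 50.3 well-watered and 218, 219.7 and 127 under deficit in Col-0. In gtl1-4 it read 65.1, 62.4 and 66.7 well-watered and 181, 171 and 139.6 under deficit, a difference of 1.32. The kinase-superfamily gene AT4G09760 had the largest difference in gtl1-4 (1.97), from 29.5, 36.3 and 53.0 to 142, 194 and 131. In Col-0 its values were 56.0, 35.4 and 54.1 well-watered and 172, 100.4 and 121 under deficit, so both genes were apart in every library.

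AGL20, also known as SOC1, a MADS-box factor that integrates flowering signals, read 212, 229 and 179.8 well-watered and 384, 372 and 345 under deficit in Col-0. In gtl1-4 it read 137, 136 and 212 well-watered and 407, 311 and 241 under deficit. No library crossed over in either genotype, and the differences were 0.83 and 0.98. The flower markers LFY, AP1, AP3 and AG summed to at most 5.53 in any emerging library. ML2, an RNA-binding protein of the MEI2-like family, read 177, 217 and 174 well-watered and 423, 341 and 380.1 under deficit in Col-0, and CLE42, a peptide of the family that acts on vascular stem cells and axillary buds, 103, 78.4 and 61.9 well-watered and 187, 151 and 108 under deficit. Both were apart in each genotype. The S-domain receptor kinase gene RK2 had few counts in emerging leaves (18.7, 8.59 and 17.4 against 41.8, 23.5 and 22.8 in Col-0) and 330.1 to 607 in expanding leaves. The dual-specificity phosphatase gene DSPTP1 and the RING-type gene AT5G41400 overlapped in Col-0, the latter also in gtl1-4, whereas the EF-hand gene AT2G46600 and the kinase-superfamily gene AT3G59350 were apart in both.

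Of the genes of other or unknown function, the tetratricopeptide repeat gene AT1G04770 had the largest difference, from 67.9, 40.8 and 77.4 to 235, 206 and 124 in Col-0. In gtl1-4 it went from 41.7, 51.2 and 68.8 to 156, 199 and 172. Its expanding values were 43.8 to 73.6 as deposited, which cannot be compared directly with the emerging values, since the tables were scaled separately. On the nuclear CPM scale explained further on, the mean of AT1G04770 was 2.72 in well-watered emerging and 8.90 in deficit emerging leaves. In well-watered expanding leaves it was 9.84, with every library above every well-watered emerging one. PIFI, a chloroplast protein named for its part in the fluorescence rise after illumination, read 1022, 1084 and 1164 well-watered and 2046, 2040.5 and 1664 under deficit in Col-0. AT5G37360, of unknown function, read 1228, 1231 and 1145 well-watered and 2439, 2055 and 1929.5 under deficit. Both had narrow replicate spreads and differences close to 0.8 in Col-0 (0.81 and 0.83). The mitochondrial ATMG00516 read 1046, 861 and 832 well-watered and 979, 2153 and 2147 under deficit, with deficit replicate 1 inside the well-watered range. UP6, a protein of unknown function, read 11.99, 4.30 and 17.4 well-watered and 25.1, 6.28 and 43.7 under deficit in Col-0, with overlap, and 7.12, 6.52 and 7.41 well-watered and 19.0, 23.97 and 37.4 under deficit in gtl1-4, where the groups were apart. Over all 11 genes of this kind, which also hold the armadillo-repeat gene AT5G64490, the DUF247 gene AT2G36430, AT3G53990, AT3G06780, AT3G19030 and AT5G57345, the differences were 0.81 to 1.59 in Col-0 and 0.91 to 1.74 in gtl1-4.

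**Figure D2:**
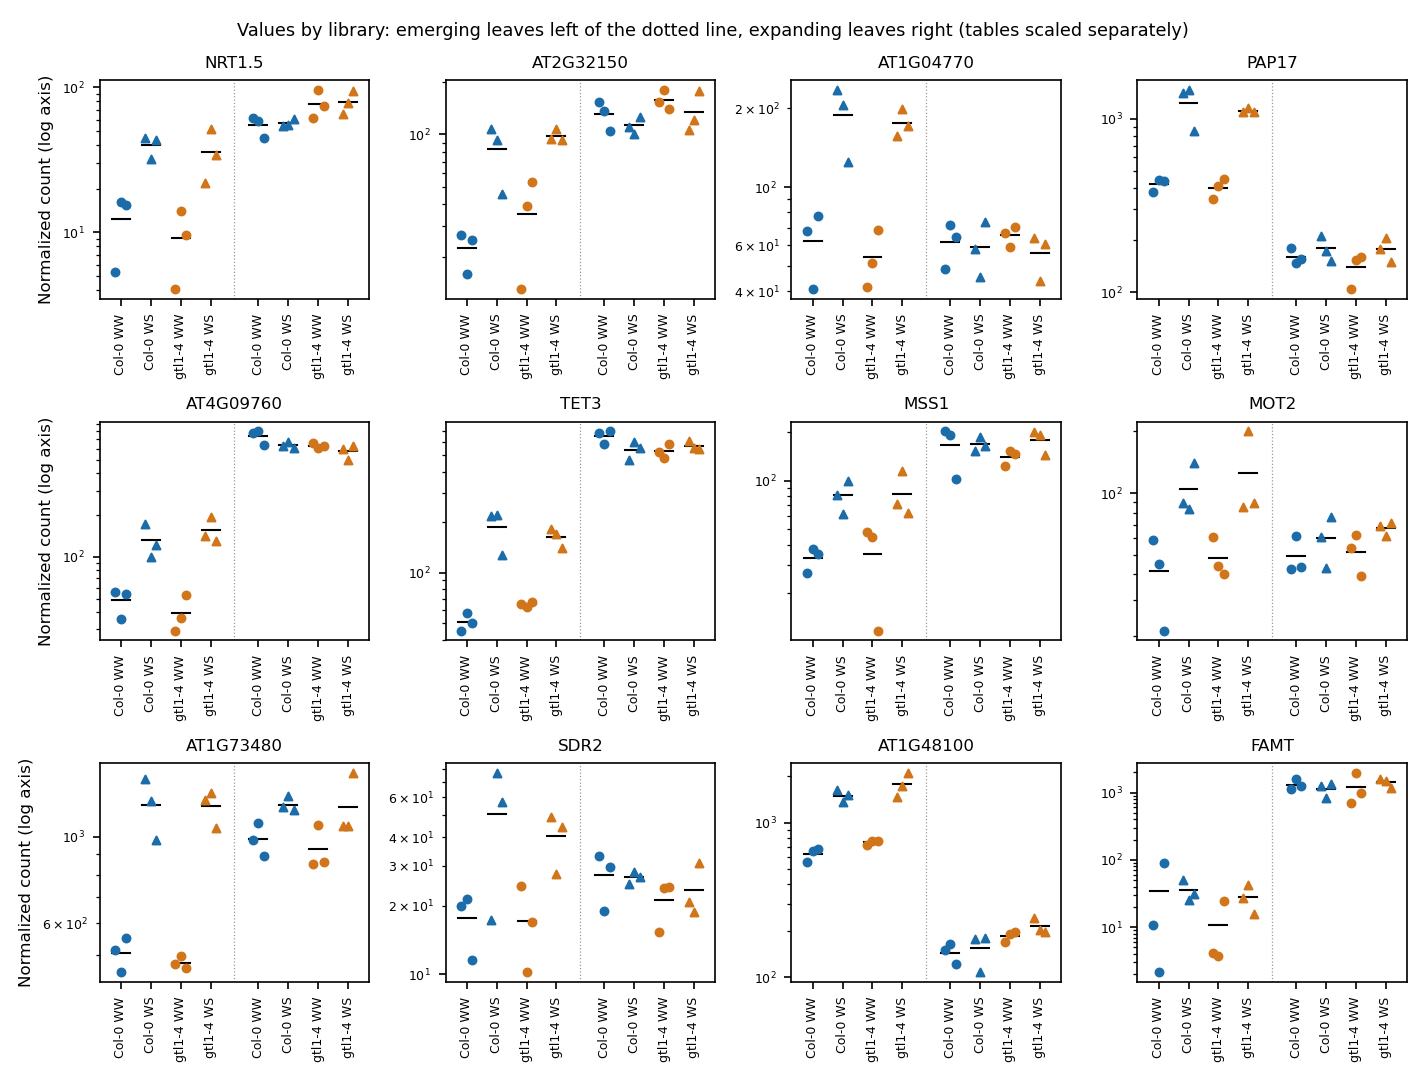
Normalized counts (log axis, a separate scale in each panel) of the 12 genes with the largest smaller emerging difference, by group, with 1 point per library, circles for well-watered (WW), triangles for water deficit (WS), blue for Col-0, orange for gtl1-4 and a black bar at the mean of 3. Emerging leaves are left of the dotted line and expanding leaves right of it, where values of the separately scaled tables should not be compared directly. In emerging leaves triangles lie above circles of the same colour except in SDR2 in Col-0 and FAMT in both genotypes.

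Counted over libraries, every deficit library was above every well-watered library in Col-0 emerging leaves for 40 of the 49 genes, against 18.7% of all 16185 genes. In gtl1-4 this held for 41 genes, against 13.7%, and with all 12 libraries pooled for 32, against 6.15%. The rule used these values, so nothing is read from these shares. It held within both genotypes for 36 genes and within neither for 4, namely FAMT, ATMG00516, AT1G52590 and AT5G41400. Libraries contributed unequally. Of the Col-0 deficit libraries, replicate 1 was the highest of the 3 in 26 genes and replicate 3 the lowest in 25. Their summed proliferation markers were 17132 in replicate 1, 20992 in replicate 2 and 22244 in replicate 3. Of the gtl1-4 deficit libraries, replicate 2 was the highest in 23 genes and replicate 3 the lowest in 25, with marker sums of 19663, 17035 and 21112 in replicates 1 to 3. Among these deficit libraries, in both genotypes, the library that was most often lowest for the 49 genes had the highest marker sum. This did not hold in well-watered emerging leaves. There Col-0 replicate 3 was most often lowest (22 genes) with a sum of 27068, below replicate 1 (27229). For gtl1-4 it was replicate 2 (20 genes), with the lowest sum of its group (23803). In deficit expanding leaves the library most often lowest had the lowest sum (311 in Col-0, 488 in gtl1-4). The part of the marker sums in the result was not tested.

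In expanding leaves the differences of the 49 genes ranged from −0.40 to 0.38 in Col-0 (median 0.06) and from −0.27 to 0.40 in gtl1-4 (median 0.21), within the limits set by the rule. They were above 0 in 29 genes in Col-0 (59.2%, against 51.8% of all genes) and in 40 genes in gtl1-4 (81.6%, against 51.2%). Every deficit library was above every well-watered one for 6 genes in Col-0, against 14.0% of all genes, for 9 in gtl1-4, against 12.9%, and for 0 with all 12 libraries pooled, against 3.95%. Genes with every deficit library below every well-watered one were not counted. XTH31 and AT2G36430 had this order in Col-0, the latter with 222 to 264 well-watered and 172 to 194 under deficit. The choice of genes is not neutral here, because the rule caps the difference at 0.4.

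The limits of the rule cut through a continuous range. Just inside the limit of 0.8 lay AT3G19000 (0.80), PIFI (0.81) and NHX2 (0.81), and just outside it lay SDR1 (0.80), AT4G03420 (0.79) and SERAT3;2 (0.79). SDR1 missed the limit in gtl1-4 alone. At the band, AT3G53990 (0.40), AT2G36430 (−0.40) and MOT2 (0.40) were just inside, and AT3G16800 (−0.40), AT4G30660 (0.41) and BGLU10 (0.41) just outside. In all, 392 genes met the emerging limit, of which 143 also reached 0.8 in both genotypes in expanding leaves.

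The level in well-watered leaves was a further feature of the set. Because the tables were scaled separately and chloroplast transcripts took 62.2 to 78.6% of counts in expanding against 17.4 to 24.1% in emerging leaves, each library was scaled to 1000000 nuclear counts, a scale called nuclear CPM here. On this scale 46 of the 48 nuclear genes were higher in well-watered expanding than in well-watered emerging leaves, against 34.1% of 16045 nuclear genes. For 42 of the 48, each of the 6 well-watered expanding libraries was above each of the 6 emerging ones, against 17.2% of all genes, and for 0 each was below, against 38.8%. The median log2 difference between ages was 2.45 for the 48 genes and −0.39 for all genes. Taking the deposited values as they are, 36 of the 48 genes were higher in expanding leaves, against 7.45% of all genes, with median differences of 0.72 and −2.12. With each library scaled to 1000000 counts of all genes, organelles included, the number was 40 of 48 against 10.4%, with medians of 1.12 and −1.70. With the median gene set to no difference it was 48 of 48 against 50.0% of all genes, a share that this scaling fixes. The well-watered emerging values also entered the choice of the genes, and no test is given.

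The age difference was not limited to the 49 genes. Of 324 other nuclear genes that met the emerging limit, 273 (84.3%) were higher in well-watered expanding leaves in nuclear CPM, with a median of 1.52. Of the 143 genes raised by at least 0.8 at both ages, 103 (72.0%) were higher, with a median of 1.03. These shares were not tested against each other, and genes are not independent replicates.

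XTH31 had the largest ratio of expanding to emerging leaves in nuclear CPM, with a mean of 1.02 in well-watered emerging, 3.10 in deficit emerging and 237 in well-watered expanding leaves. FAMT stood at 1.05, 1.56 and 195 in the same order, RK2 at 0.541, 1.16 and 76.2, and AT2G39850 at 1.51, 3.11 and 125. In these genes the deficit level in emerging leaves was far below the level of expanding leaves. TET3 went from 2.73 to 8.62 with 92.2 in expanding leaves, and TDT from 3.08 to 7.84 with 78.9. MIPS1 reached 298 from 145, against 946, and SEX1 247 from 121, against 605. In 40 of the 48 genes the deficit mean in emerging leaves was still below the well-watered mean in expanding leaves. The others reached or passed it. DSPTP1 stood at 4.01 in both, and ML2 at 21.0 in deficit emerging and 20.8 in expanding leaves. PAP17 went from 19.2 to 57.4 against 23.4, and the exceptions to the age difference, AT1G48100 (32.4 to 79.8, against 25.6) and AT4G04750 (21.7 to 42.1, against 19.9), also passed it.

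**Figure D3:**
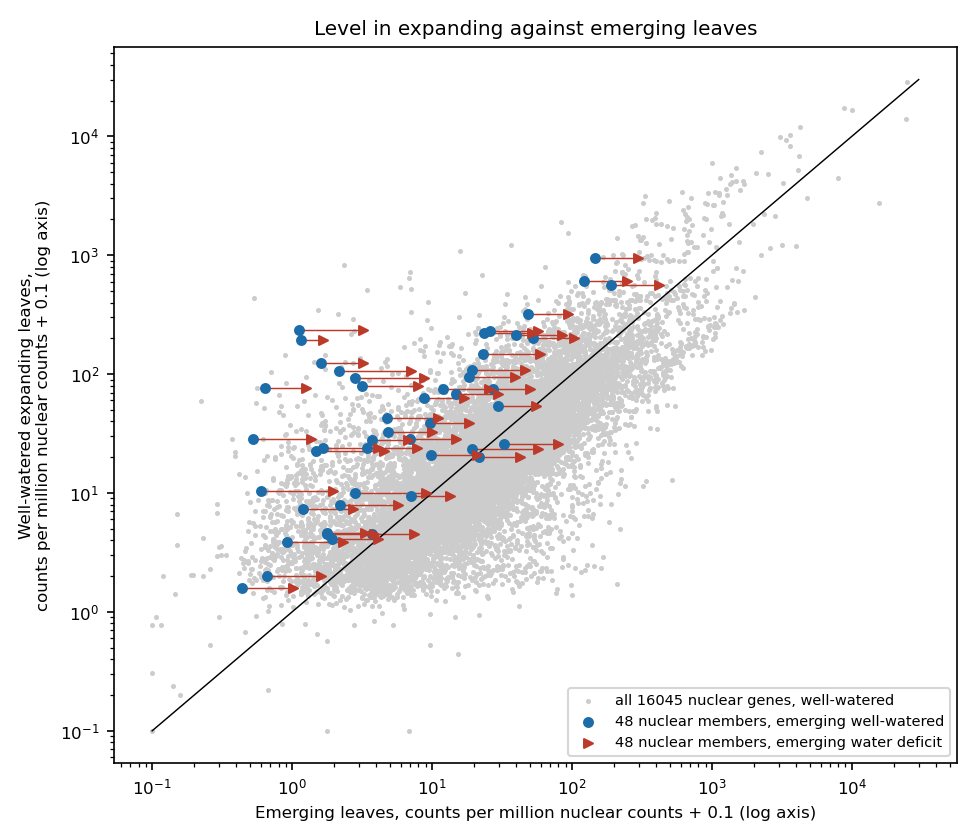
Mean level in well-watered expanding leaves (vertical) against the level in emerging leaves (horizontal), both in nuclear CPM (the axes write it out) plus 0.1 on log axes, for all 16045 nuclear genes (grey, well-watered) and the 48 nuclear members, with blue circles for well-watered emerging leaves and red triangles for deficit emerging leaves joined by a line. The black diagonal marks equal levels, and 46 of the 48 blue circles lie above it. The triangles lie to the right of their circles, with 40 of 48 still above the diagonal.

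The comparison of the mutant with Col-0, averaged over both water supplies, is independent of the deficit differences that chose the genes. In emerging leaves 0 of the 49 genes differed between genotypes by limma (adjusted p under 0.05, smallest 0.657), against 0.443% of 18529 genes, with 0.308% higher in the mutant and 0.135% lower there. Without adjustment, at p under 0.05, 4 were higher in gtl1-4 (AT1G48100, AT3G59350, ML2 and GSTF9) and 1 lower (AT3G19000), while 6.38% of all genes reached that level. The log2 differences ranged from −0.74 to 0.57, with a median of −0.04, against 0.00 over all genes. For GTL1 itself the log2 difference was −2.31 in emerging leaves (mean 1244 in Col-0 and 259.8 in gtl1-4) and −1.74 in expanding leaves (663 and 204).

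In expanding leaves 1.88% of 16522 genes differed between genotypes. Of the 49 genes, 3 were lower in gtl1-4 by limma, against 0.956% of all genes, and 0 were higher, against 0.926%. SCPL11 had 336, 291 and 316 in well-watered and 224, 234 and 307 in deficit Col-0, and 145, 175 and 215 well-watered and 188, 221 and 202 under deficit in gtl1-4. Each of the 6 mutant libraries was below each of the 6 Col-0 libraries, with a log2 difference of −0.57 (SE 0.12, limma adjusted p = 0.0183). This call was lost without gtl1-4 deficit replicate 1 (−0.54, limma adjusted p = 0.0616).

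AT3G53990, annotated as an adenine nucleotide alpha hydrolase-like protein, read 580.1, 483 and 444 well-watered and 549, 637 and 663 under deficit in Col-0, and 382, 339 and 355 well-watered and 518, 502 and 406 under deficit in gtl1-4. The genotypes overlapped, and the log2 difference was −0.43 (SE 0.10, limma adjusted p = 0.0339). FDH read 492, 670.4 and 629 well-watered and 565, 476 and 553 under deficit in Col-0, and 355, 401 and 348 well-watered and 528, 487 and 433 under deficit in gtl1-4, also with overlap, a difference of −0.41 (SE 0.10, limma adjusted p = 0.0433). The low FDH values in the mutant were those of the well-watered libraries. Leaving out 1 library at a time ended the call on AT3G53990 in 9 of 12 fits (limma adjusted p up to 0.0967), the exceptions being well-watered Col-0 replicate 3, deficit Col-0 replicate 1 and well-watered gtl1-4 replicate 1. It ended the call on FDH in 10 of 12 fits (limma adjusted p up to 0.116), the exceptions being well-watered Col-0 replicate 1 and deficit Col-0 replicate 2. Without a variance trend the calls on SCPL11, AT3G53990 and FDH were lost (limma adjusted p = 0.0634, 0.105 and 0.127). Over the 49 genes, 17 differences were positive and 32 negative, with a median of −0.06, whereas 51.7% of all genes were positive. Whether the genotype difference of these genes differs between leaf ages was not tested.

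**Figure D4:**
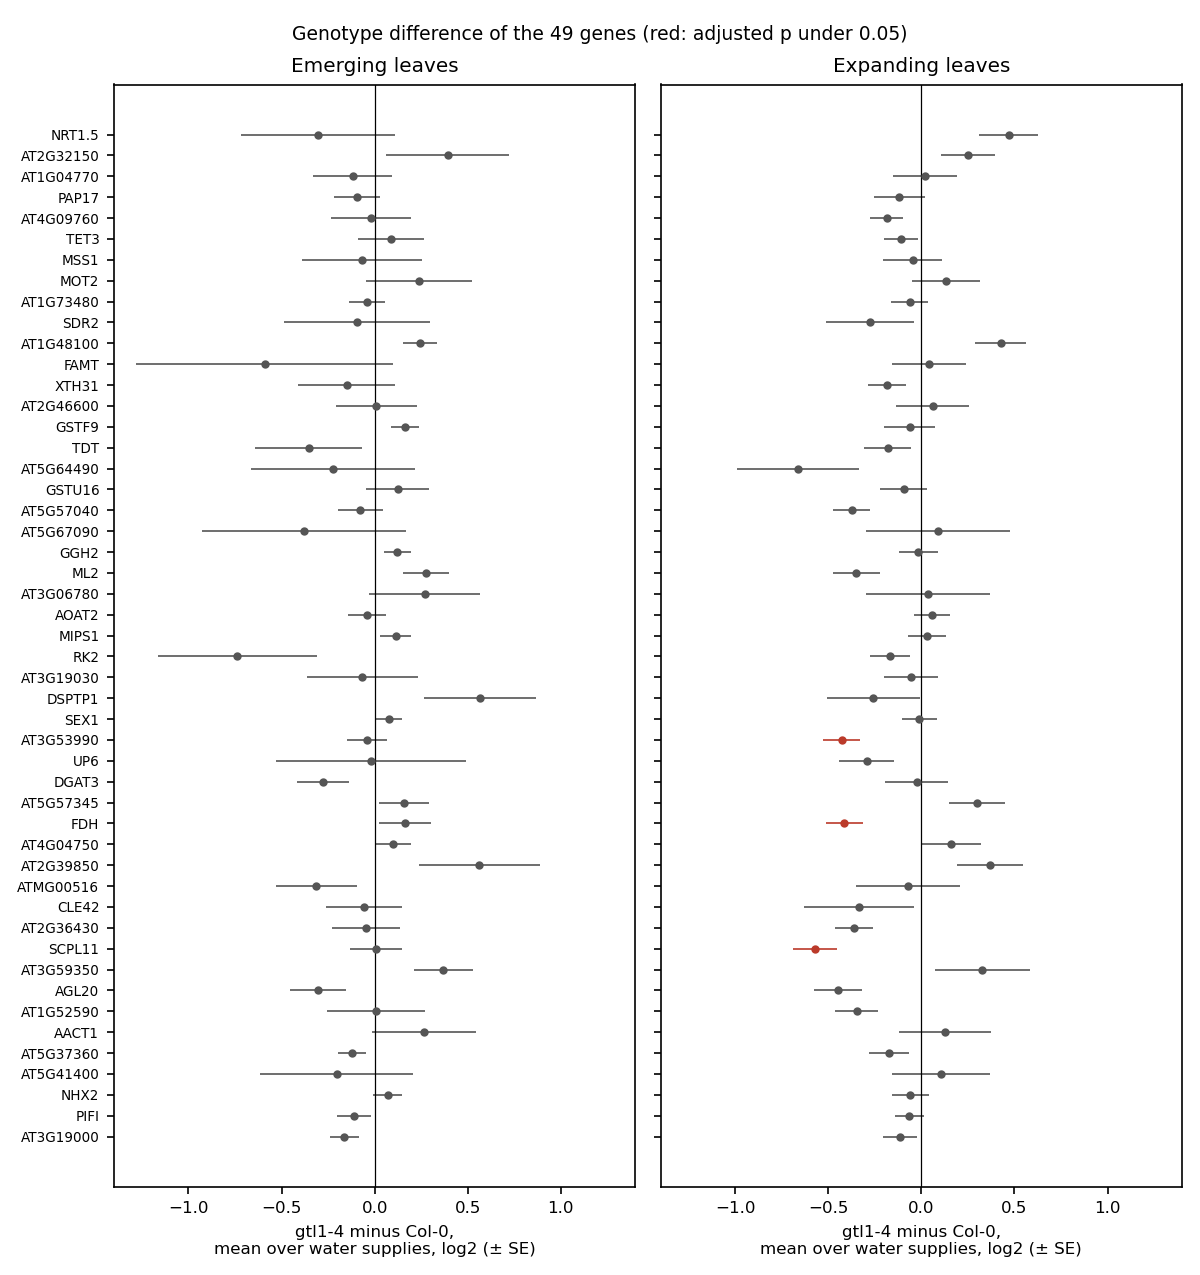
Genotype difference (gtl1-4 minus Col-0, mean over both water supplies, log2 scale, with bars of 1 standard error from limma) for the 49 genes in emerging (left) and expanding leaves (right), in the same order as the plot of deficit differences. Red marks adjusted p under 0.05, which holds for SCPL11, AT3G53990 and FDH in expanding leaves and for 0 genes in emerging leaves.

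The genes are spread over the genome. The 48 nuclear members lie on chromosomes 1 to 5 with 13, 10, 12, 3 and 10 genes in that order. All 16045 nuclear genes with the same expression filter lie there with 4207, 2482, 3191, 2426 and 3739. The nearest pair, AT3G19000 and AT3G19030, is 8.78 kb apart, followed by TDT and AACT1 at 40.4 kb and FAMT and XTH31 at 65.5 kb. Their median gene length was 2070 bp against 2545 bp for all genes, and 9 of 48 (18.8%) have 1 exon against 11.4%. In 19 of the 48, among them NRT1.5, AT1G04770, PAP17 and TET3, an annotated gene on the opposite strand overlaps, and since the use of strand in counting is not given, reads of such partners cannot be told apart. The share of all genes with such an overlap was not counted.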

How the data were processed

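The authors deposited a table of normalized counts for each leaf age, a normalized signal in which estimated gene counts appear divided by 1 size factor per library. The genome build was TAIR10, per the submitters' processing notes, which list STAR and RSEM along with bcl2fastq, FastQC, Trim Galore and Trimmomatic and no version. The sources used here do not give the method of normalization. The names of all 24 columns match the sample titles. Between 96.5 and 97.9% of values were whole multiples of a common step within 0.002, and the fractional rest spoke against a count model. Replicates differed by more than sampling noise, with a chi-square per degree of freedom of at least 9.07.

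Values were analysed as log2(value + 1), which understates changes of low genes. With a minimum mean of 10, 18529 genes in emerging and 16522 in expanding leaves were tested, and limma 3.58.1 in R 4.3.3 (lmFit, contrasts, eBayes with a variance trend) was fitted to the 12 libraries of a leaf age as 4 groups. Contrasts were the genotype effect averaged over water supplies and the water effect averaged over genotypes, with Benjamini-Hochberg adjustment over all genes and a threshold of 0.05. The fit was tested on simulated data with known changes. Alternatives were other pseudocounts, filters, scalings and weights, a replicate block, other limits of the rule and leaving out each library. Named genes were the 12 with the largest rise, members of gene lists, genes nearest the limits, genotype calls and the 5 highest counts, and others were added to describe each functional group. The members and gene lists were chosen with earlier results of these data known. Gene models, chromosomes and upstream sequence are from RefSeq TAIR10.1. Tables and plots were made in Python 3.11.15 with matplotlib 3.10.9.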

Additional observations from a re-analysis of the deposited data

How the results depend on the processing

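The number of genes that met the rule depended on its limits. It was 104 with no filter on low values, 78 with a rise of at least 0.7, 22 with a rise of at least 1, 27 with a band of 0.3 and 75 with a band of 0.5, against 49. Leaving out 1 library gave 43 to 59 genes, and 11 of the 49 were kept in all 24 such runs. The other alternatives, with pseudocounts, a mean of at least 50 or rescaling, gave 35 to 50 genes.

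Genotype calls over all genes were 50 in emerging leaves without a variance trend, against 82, and 58 to 87 when leaving out 1 library. In expanding leaves the main count of 311 became 476 with array weights and 168 without a variance trend, and 169 to 302 when leaving out 1 library. The lowest counts were those without gtl1-4 well-watered replicate 3 (169) and gtl1-4 deficit replicates 1 (169), 2 (178) and 3 (186). Among the 49 genes the 3 calls in expanding leaves became 0 without a variance trend, 4 with array weights and 0 to 2 when leaving out 1 library, being 0 without gtl1-4 deficit replicate 1 and 1 without gtl1-4 well-watered replicate 2 or 3 or deficit replicate 2 or 3. In emerging leaves 0 were called in any of these fits. The cause was not tested.

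Replicate numbers did not pair the libraries, since correlations of same-numbered deviations ran from −0.28 to 0.20 in emerging and −0.16 to 0.13 in expanding leaves. Each library correlated best with its own number in 2 of 12 and 5 of 12 cases. With the replicate block, genotype calls were 74 in emerging and 254 in expanding leaves, water calls 4206 and 2820 against 4479 and 3056, and the members called in expanding leaves 1, SCPL11, while AT3G53990 (limma adjusted p = 0.0551) and FDH (0.0771) were not called. Water calls were 3418 to 4632 and 2251 to 3045 when leaving out 1 library. The age comparison, whose alternatives were chosen after seeing the data, gave 46 of 48 genes without any 1 of the 12 well-watered libraries. Of the list genes named, the calls in emerging leaves were lost in 5 of 12 fits leaving out 1 library for ANT (differences −0.23 to −0.18), 9 of 12 for GOLS1 (−0.50 to −0.26) and 7 of 12 for TPS8 (−0.31 to −0.22), and under 1, 4 and 0 of 9 other alternatives, and no result changed direction. Depth limits genes of low count, of which 10 had a mean under 50 in emerging leaves.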
